A study of Mus musculus with 12 samples.

Results

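Aminoacyl-tRNA synthetases are the enzymes that join each amino acid to its own transfer RNA, the step that lets a ribosome read the genetic code. Mammals carry a set of these enzymes for the cytosol and a largely separate set, made from other nuclear genes and imported, for the ribosomes of mitochondria. Several cytosolic enzymes sit together in the multisynthetase complex, and several cytosolic genes are known targets of ATF4, the transcription factor that acts when amino acids are scarce. Here 35 genes of this family were read in the ChIP-seq peak lists of MOF (KAT8), a histone H4 acetyltransferase: 19 genes for cytosolic enzymes and 16 for mitochondrial enzymes, whose names end in 2. The rule lists them by name and uses no measured value, out of 21938 protein-coding genes on the assembled chromosomes.

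The study set C57BL/6 mice with both copies of the gene for MOF (Mof+/+) against mice with 1 copy (Mof+/-), all 8 weeks old and fed a standard diet, and took visceral white adipose tissue, labelled as visceral white adipocytes. In both genotypes chromatin was crosslinked with formaldehyde and fragmented with the enzyme CviKI-1 and by sonication. There were 12 libraries in 6 groups of 2 (MOF ChIP, H3 ChIP and input in each genotype), although the series design text counts 2 control and 3 Mof+/- animals. The data analysed here were 2 lists of peaks, 1 per genotype, so no value had a spread between animals and no difference between genotypes was tested.

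There were 19773 peaks in the Mof+/+ list and 731 in that of Mof+/- tissue. A peak here is a region where MOF ChIP fragments outnumbered the input background at a q-value threshold of 0.1, and its fold enrichment is the ratio of these fragments to that background at the summit, its highest point. In the Mof+/+ list the lowest background was 3.52 fragments, over which 11 fragments or a fold of 2.65 reached the weakest p-value listed, and in the Mof+/- list the lowest background was 2.26 fragments, over which it took 11 fragments or a fold of 3.68. Beside a share of 41.0% over all protein-coding genes, 4 of 8 adipocyte markers had a Mof+/+ promoter peak, that is a peak within 1 kb of a start site (Adipoq, Plin1, Lipe and Cfd), as did 5 of 6 B cell and 5 of 6 T cell markers, 1 of 6 macrophage markers and 1 of 6 endothelial markers, while in the Mof+/- list Pax5, a B cell marker, was the sole marker of these lists with one. These counts do not say which cells were present, and in bulk tissue fewer cells of a type and less MOF per cell cannot be told apart. Kat8 itself, which encodes MOF, had Mof+/+ peaks at chr7:127911839-127913404 (fold 4.20, counting interval 2.58 to 6.51) and chr7:127918517-127918842 (fold 3.54) and 0 peaks in the Mof+/- list, which says nothing of the genotype of the animals.

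Most synthetase promoters carried a MOF peak in Mof+/+ tissue and none did in the Mof+/- list. A promoter peak lay within 1 kb of any annotated start site of the gene. In the Mof+/+ list 24 of 35 genes had one, or 68.6% (95% Wilson interval 52.0 to 81.4), where 41.0% of all protein-coding genes (9003 of 21938) did. In the Mof+/- list 0 of 35 had one, which allows a share of up to 8.57%, where 1.32% of all protein-coding genes (290) did. That background lies inside what a count of 0 in 35 genes allows, so the Mof+/- list does not separate the synthetases from other genes. Only 15 of the 24 Mof+/+ peaks had a fold of 3.68 or more, so a summit of the same height could have escaped the Mof+/- list at the other 9 genes. Of these 15 only Dars (4.52 to 9.43) and Yars (3.98 to 8.65) had a counting interval wholly above 3.68. At the rest of the 15 counting error could also have kept a like summit off the Mof+/- list. Had the weakest p-value listed for Mof+/- been the limit, 21 of 35 synthetases would have been listed in Mof+/+, against 35.8% of all protein-coding genes. That count keeps the depth and background of the Mof+/+ list, so it does not show what a list of Mof+/- depth would hold. Tars, for example, passed this limit at a fold of 3.12, below 3.68.

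The promoters that the results turn on are shown first. Dars and Mars2 had the strongest peak of a cytosolic and of a mitochondrial enzyme that starts alone, with no opposite gene nearby, and Iars and Aars2 are, by name, the first such genes of each kind in the table with no peak. The RefSeq promoter table, on GRCm38.p6, held 26 of the 35 genes, and Cars, Hars, Lars, Nars, Rars, Vars, Wars, Hars2 and Pars2 were not in it. Each line gives, 5′ to 3′ on the strand of the gene, up to 150 bases just before the RefSeq start that lie in no annotated exon, with every CpG site in capitals. The windows are chr1:128417417-128417566 (minus strand) for Dars, chr1:55237027-55237176 (plus) for Mars2, chr13:49681980-49682099 (plus, 120 bases) for Iars and chr17:45506682-45506831 (plus) for Aars2.
Dars: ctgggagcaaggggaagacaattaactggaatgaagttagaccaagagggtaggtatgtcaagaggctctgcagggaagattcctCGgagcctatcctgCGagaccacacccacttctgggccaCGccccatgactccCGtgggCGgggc
Mars2: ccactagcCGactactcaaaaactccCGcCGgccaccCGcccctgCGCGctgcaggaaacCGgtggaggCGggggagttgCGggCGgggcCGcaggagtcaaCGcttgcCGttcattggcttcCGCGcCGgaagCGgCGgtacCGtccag
Iars: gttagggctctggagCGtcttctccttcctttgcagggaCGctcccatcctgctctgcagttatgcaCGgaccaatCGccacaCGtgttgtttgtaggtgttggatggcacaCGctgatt
Aars2: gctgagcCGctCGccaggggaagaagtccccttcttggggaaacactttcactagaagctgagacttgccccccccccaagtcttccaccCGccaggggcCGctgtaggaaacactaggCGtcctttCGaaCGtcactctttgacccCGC
The Mars2 window held 19 CpG sites and the Dars window 5, although both promoters had a strong peak. The windows without a peak held 6 sites in Iars and 8 in Aars2, between those 2.

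Dars, which charges tRNA with aspartate, had the highest peak of the family. Its fold was 6.64 (counting interval 4.52 to 9.43), from 29 fragments over the summit, at chr1:128416873-128417355. The peak was 483 bp wide, began 4 bp downstream of the nearest start site without covering it, and had its summit 283 bp downstream in an intron. Yars, the tyrosine enzyme, followed with a fold of 5.97 (3.98 to 8.65) and 26 fragments at chr4:129188887-129190163. That peak spanned 1277 bp across the start and had its summit 406 bp upstream of the gene, 144 bp from the nearest start site of S100pbp, a gene on the opposite strand. Mars2, the mitochondrial methionine enzyme, had a fold of 5.53 (3.62 to 8.12) from 24 fragments at chr1:55236846-55237752, with the summit 116 bp downstream in coding sequence. Vars, the valine enzyme, had 2 promoter peaks of like height, whose summits were nearest to different start sites. The one at chr17:35001345-35002150 had a fold of 4.99 (3.21 to 7.44), covered no start site and had its summit 523 bp downstream in an intron. The one at chr17:34999198-35001055 had a fold of 4.73 and covered a start site, with its summit at -151 bp, upstream. Aars, the alanine enzyme, had a fold of 4.80 (3.08 to 7.16) from 22 fragments at chr8:111033776-111034309, with the summit 58 bp downstream in the untranslated region.

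The other peaks were lower and lay close together in height. Among cytosolic enzymes these were Nars (asparagine, fold 4.42), Gars (glycine, 3.94), Farsa and Farsb (the subunits of the phenylalanine enzyme, 3.76 and 2.73), Eprs (glutamate and proline in 1 protein, 3.70), Sars (serine, 3.58), Lars (leucine, 3.32), Tars (threonine, 3.12), Wars (tryptophan, 3.07) and Qars (glutamine, 2.87). The mitochondrial enzymes ran from Nars2 (asparagine, fold 4.20) and Ears2 (glutamate, 4.09) through Tars2 (threonine, 3.98), Vars2 (valine, 3.87), Rars2 (arginine, 3.76), Fars2 (phenylalanine, 3.75), Iars2 (isoleucine, 3.66) and Yars2 (tyrosine, 3.32) to Pars2 (proline, 2.66). Over the 24 genes the fold had a median of 3.76, where all protein-coding genes with a promoter peak had 3.98. The summits rested on 13 to 29 fragments, with a median of 17.5, and 10 of the 24 sat over the lowest background of the list. The fold intervals of 21 of the other 23 genes overlapped that of Dars, the exceptions being Farsb (1.60 to 4.38) and Pars2 (1.51 to 4.42), so most of the order of heights is not resolved at this depth. Farsb, Qars and Pars2 were the genes whose peak did not reach a q-value of 0.01.

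**Figure D1:**
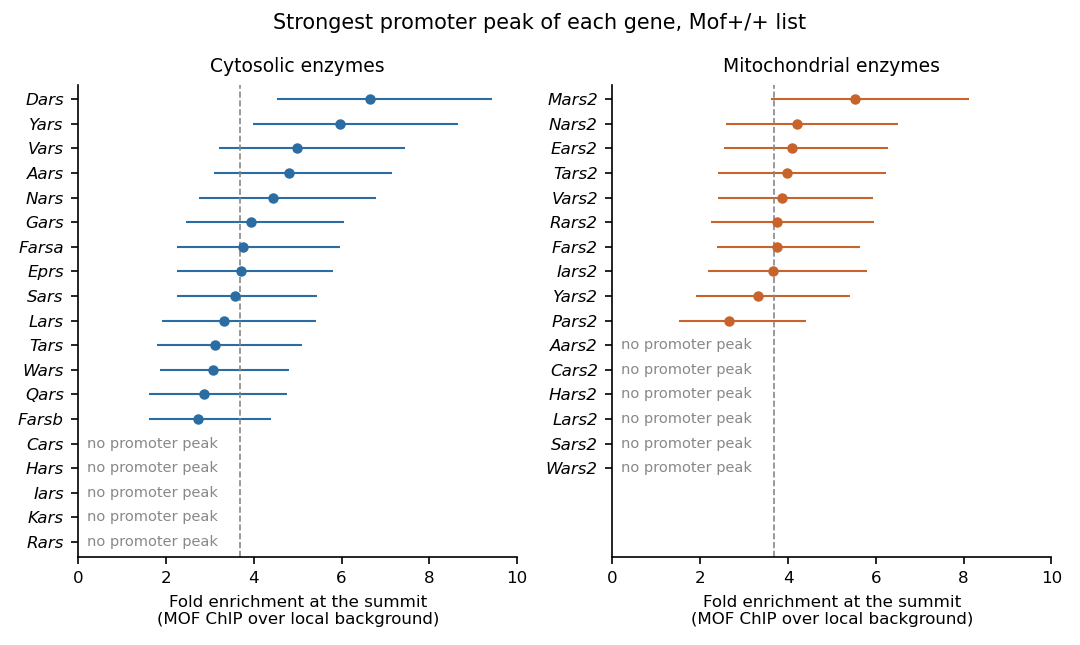
Fold enrichment at the summit of the strongest Mof+/+ promoter peak (horizontal axis, ratio of MOF ChIP fragments to local background) for each gene, with cytosolic enzymes on the left and mitochondrial enzymes on the right. Points are the authors' values, bars are exact 95% Poisson counting intervals with the background held fixed, and the dashed line marks the fold of 3.68 that the lowest Mof+/- background required. Dars reaches 6.64 and Mars2 5.53, all intervals but those of Farsb and Pars2 overlap that of Dars, and 5 cytosolic and 6 mitochondrial genes have no promoter peak.

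Cytosolic and mitochondrial enzymes could not be told apart by their share of peaks. A Mof+/+ promoter peak stood at 14 of 19 cytosolic genes (73.7%, 51.2 to 88.2) and at 10 of 16 mitochondrial genes (62.5%, 38.6 to 81.5), beside 41.0% of all protein-coding genes. The difference of 11.2 percentage points had an interval from -18.3 to 39.1. It changed sign when the peak had to cover a start site, with 11 cytosolic and 10 mitochondrial genes (-4.61 points, beside 31.9% of all), and with a q-value threshold of 0.001, with 9 and 8 genes (-2.63 points, beside 31.3% of all). Leaving out Gars and Kars, each of which encodes the enzyme of both compartments, gave a difference of 14.0 points. Median fold was 3.73 in cytosolic and 3.81 in mitochondrial genes.

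For 12 amino acids the genes read were a pair, 1 cytosolic gene named for that amino acid alone and 1 mitochondrial gene. Both had a peak for asparagine (Nars and Nars2), threonine (Tars and Tars2), valine (Vars and Vars2) and tyrosine (Yars and Yars2). The cytosolic gene alone had one for alanine, leucine, serine and tryptophan: Aars at fold 4.80, Lars at 3.32, Sars at 3.58 and Wars at 3.07, while Aars2, Lars2, Sars2 and Wars2 had none. The reverse held for isoleucine and arginine, where Iars2 (3.66) and Rars2 (3.76) had a peak and Iars and Rars did not. Neither gene had one for cysteine (Cars and Cars2) or histidine (Hars and Hars2). In all, 6 of these 12 pairs were split, a count that was not set against pairs of other genes. Phenylalanine, glutamate and proline do not form such pairs, since Farsa and Farsb are subunits of 1 enzyme and Eprs serves both other amino acids, and all of their genes had a peak (Farsa, Farsb, Eprs, Fars2, Ears2 and Pars2).

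The 11 genes without a promoter peak had 0 Mof+/+ peaks over the gene, where 4.48% of all protein-coding genes without a promoter peak had one, so this count does not separate them from other genes. Hars2 and Rars came nearest, with a peak 3499 bp and 3741 bp from a start site, followed by Cars2 at 3766 bp. Hars was 10307 bp, Cars 15464 bp, Lars2 23629 bp and Iars 28747 bp from the nearest peak. The lysine enzyme Kars, the mitochondrial serine enzyme Sars2 and the mitochondrial alanine enzyme Aars2 lay 63475 bp, 38283 bp and 40053 bp away, and Wars2, the mitochondrial tryptophan enzyme, 100176 bp. On the other side of the 1 kb limit the farthest peak that a gene was counted by, taking its nearest one, was that of Eprs at 143 bp, so no gene fell between 143 and 3499 bp.

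Within the cytosolic set, the multisynthetase complex holds 7 of the enzymes read, and 4 had a peak: Dars (fold 6.64), Eprs (3.70), Lars (3.32) and Qars (2.87). Iars, Kars and Rars had none. Of the 12 cytosolic genes outside the complex 10 had one, beside 41.0% of all protein-coding genes. The enzymes also fall into 2 classes by the fold of their catalytic domain, with 11 of 17 class I genes and 12 of 17 class II genes carrying a peak, and Eprs, which joins both classes in 1 protein, left out of these counts. Genes that work beside the synthetases were mixed as well, with 6 of 10 carrying a Mof+/+ promoter peak and 0 of 10 a Mof+/- one, beside 41.0% and 1.32% of all. Aimp1 and Aimp2, scaffold proteins of the complex, had folds of 4.87 and 2.88, and Eef1e1, the third such protein, had no peak. Qrsl1, Gatb and Gatc, the subunits of the enzyme that makes glutaminyl-tRNA in mitochondria, had folds of 4.42, 3.98 and 4.04. Prorsd1, an editing-domain homologue, had 3.91. Mtfmt, which formylates the initiator methionyl-tRNA of mitochondria, and the editing proteins Dtd1 and Aarsd1 had none.

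Other housekeeping families of protein turnover had shares at or above that of the synthetases. In the Mof+/+ list the share was 96.2% (75 of 78) for cytosolic ribosomal protein genes, with an interval of 89.3 to 98.7 that did not overlap that of the synthetases. It was 80.8% (63 of 78, interval 70.7 to 88.0) for mitochondrial ribosomal protein genes and 76.9% (30 of 39, interval 61.7 to 87.4) for proteasome subunit genes, both overlapping it. In the Mof+/- list these counts were 1 of 78, 0 of 78 and 1 of 39.

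**Figure D2:**
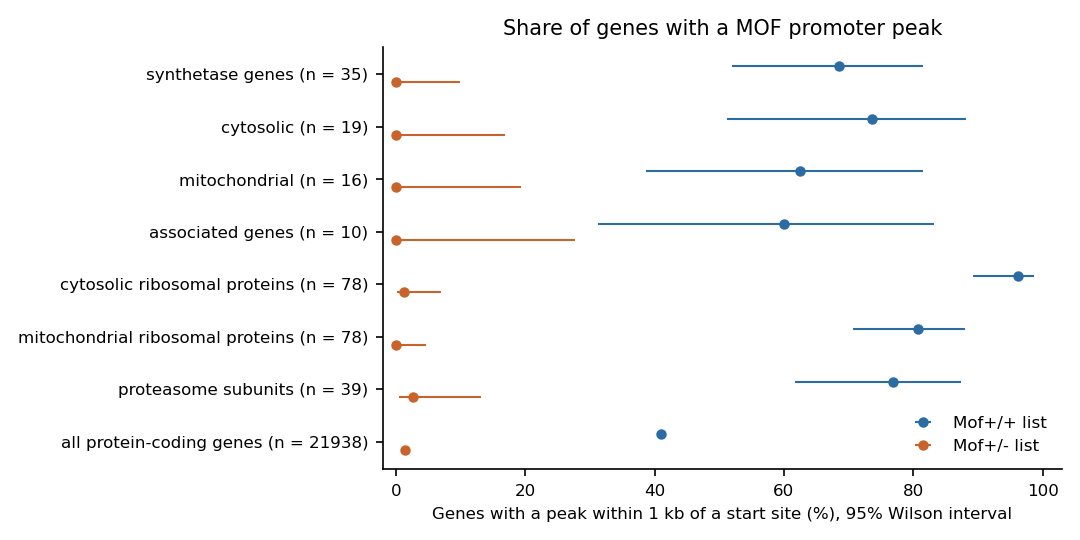
Share of genes with a peak within 1 kb of a start site (horizontal axis, percent) in the Mof+/+ list (blue) and the Mof+/- list (orange), for the synthetase genes, their cytosolic and mitochondrial sets, 10 associated genes, 3 comparison families and all protein-coding genes. Points are shares and bars 95% Wilson intervals, which cover counting error only. In Mof+/+ the synthetases stand at 68.6%, between all protein-coding genes at 41.0% and cytosolic ribosomal proteins at 96.2%, and in Mof+/- every share is at or near 0.

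The summits lay near start sites, as those of other genes did, and their position did not separate the family from other genes. The median summit lay 98.5 bp downstream of the nearest start site (quartiles -8 to 157, interval of the median 36 to 137), against 60 bp over all protein-coding genes with a promoter peak. Of the 24 summits 18 were downstream (75.0%, against 60.4% of all), and 19 were within 300 bp of a start (79.2%, against 67.2%). By annotation 7 summits fell in an intron, 6 in an untranslated region, 5 in coding sequence and 6 upstream of the gene. Measured from the 5′-most start site of a protein-coding transcript in place of the nearest start site, the order turned, with a median of 137 bp for the family and 190 bp for all. Mitochondrial summits had a median of 93.5 bp (quartiles 54 to 133) and ran from -297 bp in Rars2, the sole upstream one of 10, to 873 bp in Tars2. Cytosolic summits ran from -406 bp in Yars to 523 bp in Vars, with a median of 102 bp (quartiles -163 to 261) and 9 of 14 downstream. The other upstream ones were Lars (-370 bp), Eprs (-216), Nars (-170) and Farsb (-140).

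Widths ran from 347 bp in Gars to 1676 bp in Ears2, with a median of 820.5 bp, close to the 839 bp of all genes with a promoter peak. The median was 795.5 bp for cytosolic and 855 bp for mitochondrial enzymes. The strongest peak covered a start site at 19 of 24 genes (79.2%, against 74.2% of all), and Dars, Eprs, Gars, Vars and Tars2 were those where it did not. The Gars peak, like that of Dars, began 4 bp downstream of its nearest start site, and a second Gars peak of fold 2.47 lay 709 bp from the start. In Tars2 the stronger peak (chr3:95758756-95759486, fold 3.98) lay 720 bp inside the longest annotated transcript, its summit at 873 bp. A weaker Tars2 peak (chr3:95754472-95754811, fold 2.73) covered another start site, and in Vars too the weaker peak covered a start site. No peak was shared by 2 synthetase genes.

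**Figure D3:**
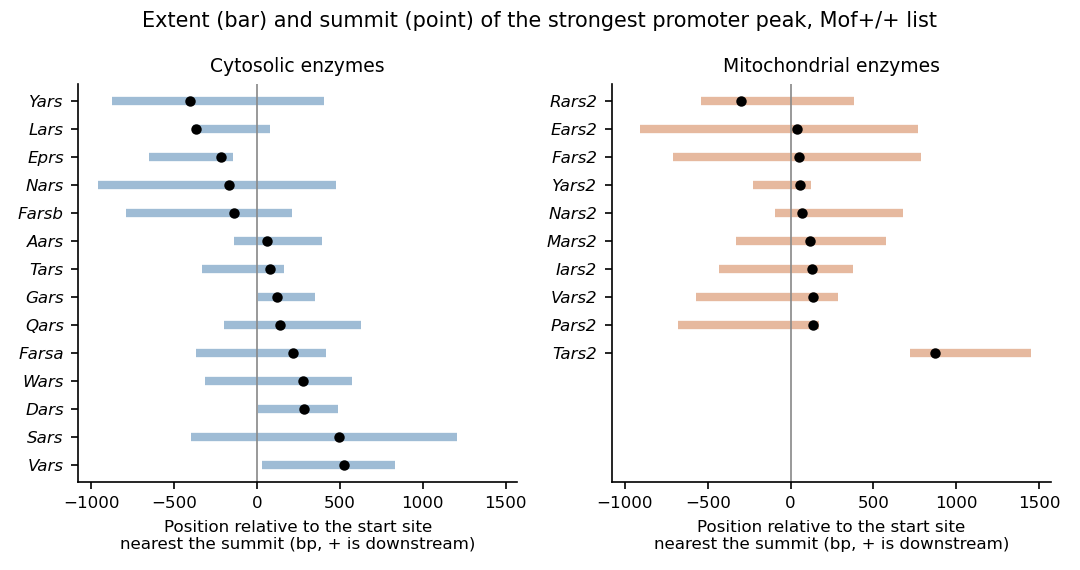
Extent (bars) and summit (black points) of the strongest Mof+/+ promoter peak of each gene relative to the start site nearest its summit (horizontal axis, bp, positive values downstream), sorted by summit. Cytosolic summits range from -406 to 523 bp with 9 of 14 downstream, and mitochondrial summits from -297 bp (Rars2) to 873 bp (Tars2) with 9 of 10 downstream.

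Synthetases with a peak had more CpG sites at the median than those without. GC content had medians of 56.3% with and 56.0% without a peak, but reached 69.2% with a peak and 58.5% without, with upper quartiles of 62.6% and 57.6%. Within 1001 bp centred on the reference start, the genes with a peak had a median of 60.5 CpG sites (15 to 106) and those without had 49 (35 to 66), where all protein-coding genes with and without a peak had medians of 67 and 18. All 9 synthetases over the upper quartile of the family, 70.5 sites, had a peak: Eprs, Gars, Vars, Yars, Ears2, Fars2, Mars2, Vars2 and Yars2, against 72.8% of all protein-coding genes in that range. Between the quartiles, from 45 to 70.5 sites, 10 of 18 had one (55.6%), against 60.1% of all genes in the range. Of the 8 synthetases with fewer than 45 sites 5 had one (Aars, Lars, Qars, Wars and Tars2), against 16.4% of all genes in that range. These are unlike groups, since the 8 synthetases had 15 to 44 sites while the other genes reached down to 0 and the lower quartile of all protein-coding genes was 12. Kars, with no peak, had 66 sites, the same number as Dars. RGCY sites, where CviKI-1 cuts, had a median of 23.5 in synthetases with a peak and 24 in those without, where all protein-coding genes had 27 and 21. The part of CpG sites and of the cutting enzyme in the peaks was not tested.

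**Figure D4:**
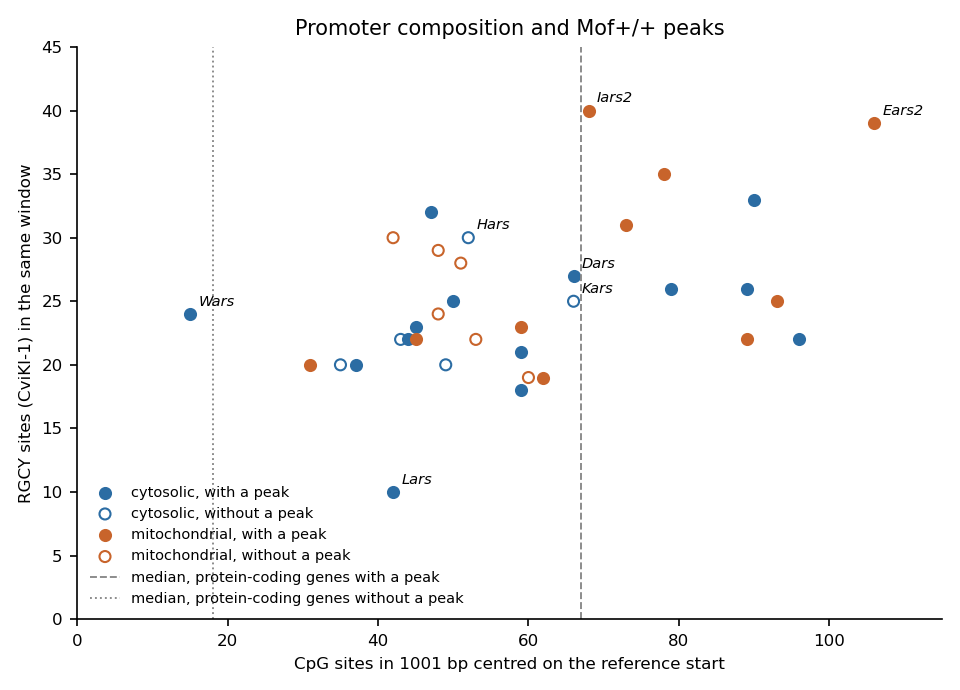
CpG sites (horizontal axis) and RGCY sites of CviKI-1 (vertical axis) in 1001 bp centred on the reference start of each synthetase gene, filled where the gene had a Mof+/+ promoter peak and open where it had none, blue for cytosolic and orange for mitochondrial enzymes. Vertical lines are the medians of all protein-coding genes with (67) and without (18) a peak. The 9 genes with over 70.5 CpG sites all have a peak, and the open points lie between 35 and 66 sites.

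Several synthetases share a promoter region with a neighbour. A protein-coding gene on the opposite strand started within 1 kb of 9 synthetases, and 5 of them had a peak, or 55.6%, where 77.9% of all genes with such a partner did. Wars with Wdr25, Yars with S100pbp, Ears2 with Ubfd1, Fars2 with Lyrm4 and Rars2 with Orc3 each shared 1 peak between both genes. In Fars2 the summit was nearer to the start of the synthetase (53 bp, against 181 bp to Lyrm4), and in the other 4 it was nearer to the partner, as in Ears2 (36 bp, against 19 bp to Ubfd1) and Rars2 (297 bp, against 233 bp to Orc3). Hars and Hars2, whose starts lie 26 bp apart, formed such a pair with each other and both lacked a peak. Kars and Terf2ip, 75 bp apart, and Sars2 and Mrps12, 182 bp apart, also lacked one on both sides. A peak over such a promoter cannot be assigned to either gene. Without a partner, 19 of 26 synthetases had a peak (73.1%), where 36.3% of all genes without one did.

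Among the sequence features searched, CARE matches stood in cytosolic promoters and in none of the mitochondrial ones, a difference that was not tested. CARE, the C/EBP-ATF response element that ATF4 binds, was searched as TGATGNAA on both strands of the 300-base RefSeq promoters (250 bases before to 50 after the start). It was found in 5 of 12 cytosolic promoters (41.7%), those of Aars, Gars, Iars, Tars and Yars, and in 0 of 14 mitochondrial ones, where 4.51% of the 27025 promoters in the table held it. A match of each gene is shown in capitals with its surroundings, on the strand of the gene, which reads as the reverse complement in all but Yars. The windows lie at chr8:111033840-111033869 for Aars, chr6:55037960-55037989 for Gars, chr13:49682126-49682155 for Iars, chr15:11399655-11399684 (minus strand) for Tars and chr4:129189895-129189924 for Yars.
Aars: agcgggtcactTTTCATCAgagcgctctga
Gars: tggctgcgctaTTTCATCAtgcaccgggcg
Iars: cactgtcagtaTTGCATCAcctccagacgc
Tars: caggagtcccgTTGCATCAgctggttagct
Yars: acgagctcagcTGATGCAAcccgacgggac
Aars, Gars, Tars and Yars had a Mof+/+ peak and Iars had none, so CARE stood in 4 of 19 promoters with a peak and 1 of 7 without. The ETS core CCGGAAG was found in 4 of 12 cytosolic and 4 of 14 mitochondrial promoters (9.93% of all), and the Sp1-type GC box GGGCGG in 8 of 12 and 11 of 14 (38.2% of all). The NRF1 core GCATGCGC, bound by a regulator of nuclear genes for mitochondrial proteins, was found in 0 of 12 cytosolic and 3 of 14 mitochondrial promoters (Rars2, Vars2 and Wars2, against 3.05% of all). Matches of different motifs overlapped in 0 cases, and 2 GC boxes overlapped each other in Yars. A match is a string of letters and not a measured binding site.

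Beyond promoters, 1 of 35 synthetase genes overlapped a Mof+/- peak, where 1.50% of all protein-coding genes did. This peak lay over the 3′ end of Fars2, at chr13:36725922-36726883, with a fold of 4.29 (counting interval 2.43 to 7.12) and 13 fragments over a summit just past the end of the gene. It was 3996 bp from the nearest start site of Fars2 and 3785 bp from that of Nrn1, a neuronal surface protein gene, and it overlapped a Mof+/+ peak of fold 4.65 at chr13:36724247-36727560. The Fars2 promoter itself had a fold of 3.75 in Mof+/+ and no Mof+/- peak. Of the 35 genes 4 had a start site within 100 kb of any Mof+/- peak, where 7.82% of all protein-coding genes did, and the median distance was 1015030 bp.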

How the data were processed

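MOF ChIP-seq peaks of Mof+/+ and Mof+/- visceral white adipose tissue were used as deposited. The authors mapped paired-end reads to GRCm38 (mm10) with snakePipes and called peaks with MACS2 (version 2.1.1.20160309.3 in the submitters' processing notes) against input at a q-value of 0.1. The methods also describe merging of peaks closer than 1000 bp by cell type, but 3789 neighbouring pairs in the Mof+/+ list and 144 in that of Mof+/- were still this close, and how the replicate libraries of a genotype were combined for peak calling is not given in the sources used here. The deposited fold enrichment is a ratio of ChIP fragments to local background at the summit, and p-values and q-values at the same summit were deposited as −log10. The deposited summit position was used as a coordinate. The H3 and input libraries, signal tracks and reads were not analysed here, and 0 columns belonged to no sample.

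Genes and start sites came from GENCODE mouse M21 and sequence from GRCm38.p6, the build of the peaks, and coordinates count from 1. A promoter peak lay within 1000 bp of any start site of the gene, and the strongest was that with the highest −log10 p-value. Offset was measured from the nearest start. Fragments and background were solved from the fold and p-value as MACS2 computes them (pseudocount 1, match within 0.001 in −log10 p), which succeeded for 99.97% of Mof+/+ and 99.3% of Mof+/- peaks. Library totals were not given by these lists, so this is the depth behind each value. Intervals are 95% Wilson intervals for shares, exact Poisson intervals for fragments with the background held fixed, the Newcombe interval for the difference of shares, and a 95% binomial interval between ranked values for a median. They cover counting error only, and those of shares treat genes as independent. The upper limit for a count of 0 is 3 counts of the total. Genes are not replicates, and no p-value was computed. The recovery of fragments, the promoter rule and the sign of the offset were tested on simulated data, and the other steps were not. Python 3.11.15, numpy 2.4.6, scipy 1.17.1, pyfaidx 0.9.0.4 and matplotlib 3.10.9 were used.

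The genes given in full are the 5 with the highest −log10 p-value, those without a peak, those with a Mof+/- promoter peak, pairs sharing a peak, pairs of enzymes of which 1 had a peak, the associated genes and opposite-strand neighbours. The alternatives were other windows, start sites, thresholds and choices of peak. The genes and lists were chosen with earlier results of these data known. Motifs, the CpG ranges and the Fars2 3′ peak were examined after the values were seen. A further sequence window is not reported here.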

Additional observations from a re-analysis of the deposited data

How the results depend on the processing

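Of 36 recomputed values for the synthetases 33 kept their sign and stayed within their interval or spread. Set beside all genes, the median offset turned from above (98.5 against 60 bp) to below (137 against 190 bp) when measured from the 5′-most start site of a protein-coding transcript, and the median width from below (820.5 against 839 bp) to above (841 against 824 bp) when the peak nearest to a start was taken. The Mof+/+ share of synthetases with a promoter peak was 60.0% when the peak had to cover a start site or with a q-value threshold of 0.01, and it fell to 48.6% (17 of 35) with one of 0.001, where 31.3% of all protein-coding genes remained called. It was above the share of all protein-coding genes under each alternative, none of which compared genes of like CpG content or with an opposite-strand partner. The cytosolic minus mitochondrial difference of 11.2 points turned to -4.61 points when the peak had to cover a start site, since the peaks of Dars, Eprs and Gars do not, and to -2.63 points with the threshold of 0.001. The Mof+/- count was 0 of 35 under every alternative run. The median summit offset ranged from 76 bp (peak nearest to a start) to 137 bp, and median width from 806 to 855 bp.

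No paired analysis was possible because the data analysed here were a single peak list for either genotype, without replicate numbers in its columns, and for the same reason no replicate could be left out. Depth limits both lists: 11 fragments over the lowest background were needed for a peak, so a weaker summit in either genotype was not detectable. No result met the rules for a closer look.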
